A study of Mus musculus with 2 samples.

Results

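The 9 genes described here, of 32285 in each matrix, belong to the pathway by which follistatin, myostatin and the activins act on embryonic limb muscle. They include the secreted antagonists Fst and Fstl3, their sequence relative Fstl1, and the ligands Mstn, Gdf11 and Inhba. The others are the type II receptors Acvr2a and Acvr2b, and the type I receptor Acvr1b. Each of the 9 genes was found as 1 row of both matrices by its symbol. The set was selected on values from these same libraries, the lower Fst level of muscle cells at the later age among them, so the values that chose it are given as a description and support nothing. The series holds 2 single-cell RNA libraries from limb muscle of wild-type C57Bl/6 mouse embryos, 1 at E12.5 (E for embryonic day) and 1 at E15.5, with no treatment or mutation in either. How many embryos were pooled and their sex are not given in the labels, and fore- and hindlimb cells are not told apart. With 1 library per age no difference between the ages could be tested, and age cannot be told apart from the library.

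Myostatin, growth and differentiation factor 11 and the activins are secreted dimers of the TGF-beta family. They bind a type II receptor, which recruits and activates a type I receptor, and the type I receptor phosphorylates Smad2 and Smad3. Myostatin is made by muscle and limits its growth, and follistatin wraps around the ligand dimer and keeps it from its receptors.

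The E12.5 library held 12941 barcodes and 34907675 UMIs (unique molecular identifiers, 1 per captured RNA molecule), and the E15.5 library 5780 barcodes and 46966083 UMIs, with 17 barcode sequences in common. After filters 11001 and 3916 cells remained, with median depths of 2323 and 9329.5 UMIs. Cells were clustered within each library and a cluster was named from marker genes. The muscle-like class took in 602 cells of the earlier library and 395 of the later, which is 5.47% and 10.1% of kept cells, with median depths of 3749 and 14288 UMIs. All 13 muscle markers had UMIs in it at both ages, summing to 14616 CPM (UMIs per 1000000 UMIs of the class) in the earlier library and 7345 in the later. Connective tissue-like cells numbered 7157 in 14 clusters and 2015 in 8 clusters. Its 11 markers summed to 4651 CPM and 17222 CPM, and their sum within the muscle class was 587 and 862 CPM in turn. Levels below are UMIs summed over all cells of a class, on that scale. Intervals are exact 95% intervals that cover counting error only, not differences between embryos or between cells. CPM intervals treat the UMIs of 1 cell as independent, so they can be too narrow where few cells hold the UMIs. A 3-prime UMI count needs no length term when genes are compared.

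Fst encodes follistatin. At E12.5 it was highest in the muscle class, at 67.6 CPM (168 UMIs, interval 57.7 to 78.6), and the next class, the tenocyte-like cells, stood at 27.5 CPM (18.6 to 39.3). Connective tissue had 10.4 CPM (8.93 to 12.0) and chondrocyte-like cells 8.13 CPM (5.75 to 11.2), which overlap. No Fst UMI was seen in endothelial-like cells, where 3 UMIs would be 4.88 CPM. At E15.5 the order was turned round: connective tissue stood at 133 CPM (2793 UMIs, 128 to 138) and muscle at 1.64 CPM (10 UMIs in 5 cells, 0.785 to 3.01). The muscle value at E15.5 overlapped those of endothelial-like (1.45), immune-like (1.19) and mast-like cells (0.691), the 3 lowest classes. The muscle level at E12.5 was 41.3-fold that at E15.5 (21.9 to 87.6), so that the log2 ratio, E15.5 over E12.5, was -5.37 (-6.45 to -4.45). In connective tissue it was 3.68 (3.46 to 3.90), in a class that may not be made of like cells at the 2 ages. The largest connective tissue cluster was 1186 cells led by Gdf5, Gm26771 and Sfrp2 at E12.5. At E15.5 it was 651 cells led by Fst, Sfrp4 and Tmem158. Muscle held 38.4% of all Fst UMIs of the E12.5 library and 0.326% of those at E15.5, while connective tissue held 42.1% and 91.2%. Over all kept cells Fst went from 15.48 to 75.1 CPM. Fewer cells with Fst RNA and less Fst RNA per cell are not separated by a summed level.

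**Figure D1:**
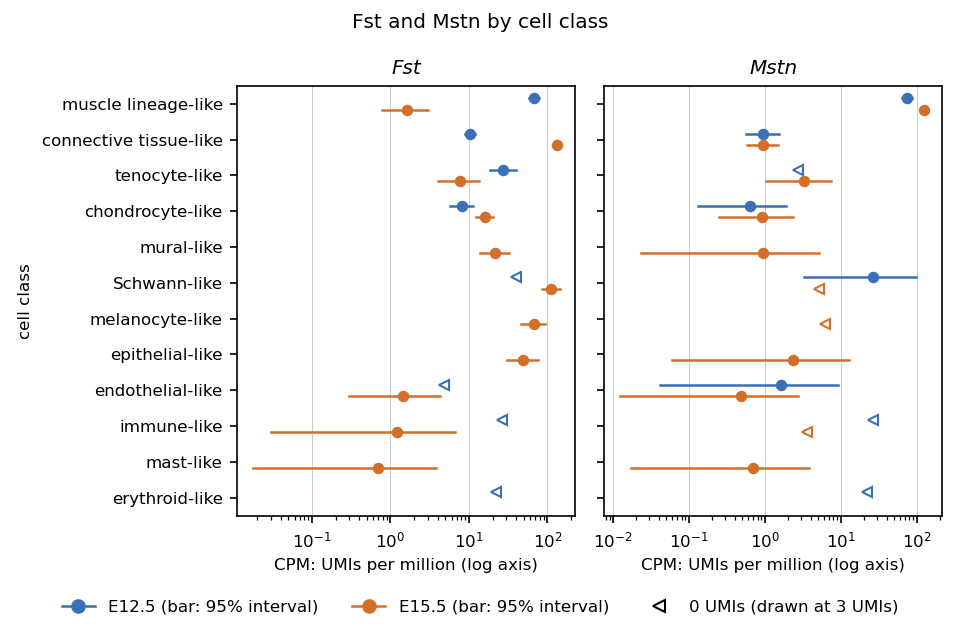
Levels of Fst and Mstn in each cell class at E12.5 (blue) and E15.5 (orange), in CPM on a log axis. Points are class sums, bars 95% counting intervals, and open triangles mark classes with 0 UMIs, drawn at the level of 3 UMIs. Fst lies at 67.6 in muscle and 10.4 in connective tissue at E12.5 and at 1.64 and 133 at E15.5, while Mstn is far above every other well-filled class in muscle at both ages.

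With each cell thinned to 2000 UMIs, the share of cells with a Fst UMI was also higher in muscle than in connective tissue at E12.5 and lower at E15.5. Of the muscle cells, 52 of 551 carried a Fst UMI at E12.5, which is 9.44% (7.13 to 12.2). At E15.5 it was 2 of 389, which is 0.514% (0.0623 to 1.84). Without thinning the shares were 14.8% and 1.27%. Connective tissue went the other way, from 1.87% (1.49 to 2.31) to 17.7% (16.1 to 19.5) when thinned, and from 2.25% to 37.6% when not. Endothelial-like cells were taken to stand for the level that free RNA gives, which was not itself measured. They had none in 116 cells at E12.5 and none in 131 at E15.5. The exact intervals of these 0 counts reach up to 3.13% and 2.78%. Median depths of the endothelial-like cells were 3912.5 and 10398 UMIs. Immune-like cells also had none, in 23 and 60 thinned cells, as had 39 erythroid-like cells at E12.5. Without thinning, 1.31% of the later endothelial-like cells had a Fst UMI (0.159 to 4.64), an interval that takes in the 1.27% of muscle. Thinning left out 51 and 6 muscle cells, and 2707 and 1 connective tissue cells.

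The Fst level of the E15.5 muscle class depended on which barcodes were counted as muscle. With doublets (barcodes that look like a mix of cells) kept, it had 412 cells, 50 Fst UMIs and 7.74 CPM, and the log2 ratio between the ages was -2.99 (-3.47 to -2.54). The connective tissue markers then summed to 1219.6 CPM, against 862 without doublets, with 0 of the 11 markers at 0. With all deposited barcodes the ratio was -2.91, with 57 Fst UMIs at E15.5, and with the class as named but each cell thinned it was -4.48, from 63 and 2 UMIs. Taking as muscle every kept cell with at least 3 UMIs of the muscle markers gave 687 cells at E15.5, 333 Fst UMIs and a ratio of -0.87 (-1.14 to -0.59). In those cells the connective tissue markers summed to 4570.0 CPM and the immune markers to 166 CPM, against 4.75 CPM in the muscle class. The part that these other cells have in the Fst level was not tested. In the E12.5 muscle class Fst was between 60.9 and 67.6 CPM under these choices of barcodes, thinning aside.

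Among muscle cells at E12.5, Fst went with differentiation. The 394 cells of the cluster led by Msc, Pax7 and Pdgfa, with Pax7 (a transcription factor of muscle progenitors) at 182 CPM, had Fst at 17.3 CPM (11.4 to 25.2). The 158 cells led by Myog, Rbm24 and Mymx, with Myog (the factor that drives terminal differentiation) at 1258 CPM, had Fst at 118 CPM (92.7 to 148). The 50 cells led by the sarcomere genes Myh3, Mylpf and Myl4 had Fst at 224 CPM (174 to 285). The 3 intervals do not overlap. At E15.5 all 3 muscle clusters were below the lowest of these, the last of them with an interval that overlaps it. Fst had 1 UMI, or 0.471 CPM (0.0119 to 2.63), in the 157 cells led by Msc, Pax7 and Kcne1l, and 0 UMIs in the 151 cells led by Pax7, Msc and Fgfr4, which allows up to 1.11 CPM. The 87 cells led by Mylpf, Myl1 and Tnnc2, with Myog at 2029 CPM, had 9 UMIs, or 6.96 CPM (3.18 to 13.2). Of the 10 Fst UMIs of E15.5 muscle, 9 were thus in the most differentiated cluster. Col1a1, 1 of the 11 connective tissue markers, was also highest there, at 258 CPM against 90.9 and 60.2 in the other 2 clusters. The list as a whole was not summed by muscle cluster, so whether it follows Col1a1 is not shown. The part of connective tissue RNA in those 9 UMIs was not tested. The members and the pathway genes were left out of the genes used for clustering.

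**Figure D2:**
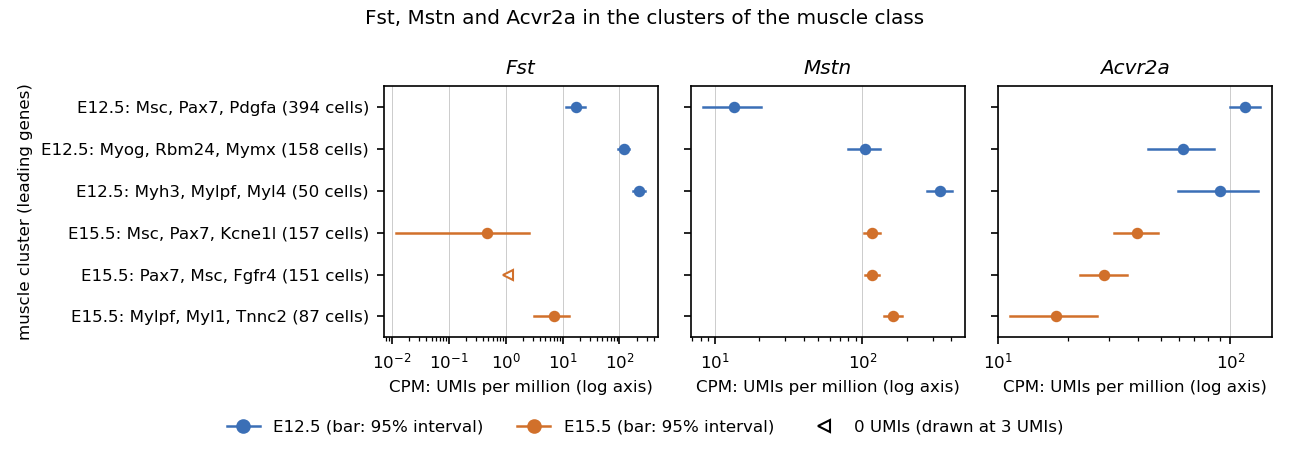
Fst, Mstn and Acvr2a in the 3 muscle clusters of each library, in CPM on log axes, with 95% counting intervals. Clusters are named by their first 3 leading genes. Fst climbs from 17.3 to 118 and 224 over the E12.5 clusters and stays at or below 6.96 at E15.5, whereas Mstn at E15.5 lies between 116 and 161 in all 3.

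Splitting muscle cells by 2 marker UMIs instead of clusters gave the same picture. In cells with a Myog UMI and no Pax7 UMI, Fst was at 135 CPM in 241 cells of the earlier age and at 4.54 CPM in 114 of the later, a log2 ratio of -4.90 (-6.14 to -3.88). With each cell first thinned to 2000 UMIs the ratio was -3.67 (-6.76 to -1.73), from 46 and 2 UMIs. Pax7 and Myog levels of the whole muscle class differed less between the ages: Pax7 stood at 116 CPM and 115 CPM, and Myog at 451 CPM and 564 CPM. The 13 muscle markers together, however, summed to 14616 CPM at E12.5 and 7345 CPM at E15.5. The Myog-led and Myh3-led clusters held 158 and 50 of 602 muscle cells at E12.5, and the Mylpf-led cluster 87 of 395 at E15.5. The class is thus not shown to have the same make-up at both ages.

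Within E15.5 connective tissue Fst was uneven. The 651 cells whose cluster Fst itself led, followed by Sfrp4 and Tmem158, had 277 CPM (264 to 291), and the cluster was found although Fst was not used to form it. The 205 cells led by Dpt, Apod and Cd55 had 171 CPM (154 to 189), and the 235 cells led by the cell cycle genes Nusap1, Hmmr and Esco2 had 111 CPM (up to 122). The 382 cells led by Aldh1a3, Ngfr and Nppc had 49.4 CPM (42.8 to 56.8). The lowest were the 337 cells led by Nefm, Tac1 and Sfrp2, at 11.4 CPM (7.71 to 16.3), and the 49 cells led by Spink6, Anxa8 and Pi16, at 9.58 CPM (3.11 to 22.4), whose intervals overlap. At E12.5 the 14 connective tissue clusters ran from 0 to 19.4 CPM, the highest being the 1137 cells led by Aldh1a2, Ebf2 and Cxcl12. A count of 0 allows up to 3 UMIs. In the smallest of these clusters, 44 cells at a median depth of 994.5 UMIs, that limit is loose. Leaving out the cluster that Fst led lowered the connective tissue log2 ratio from 3.68 to 2.85 (2.62 to 3.08), a move of more than 1.5-fold, and left its direction.

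**Figure D3:**
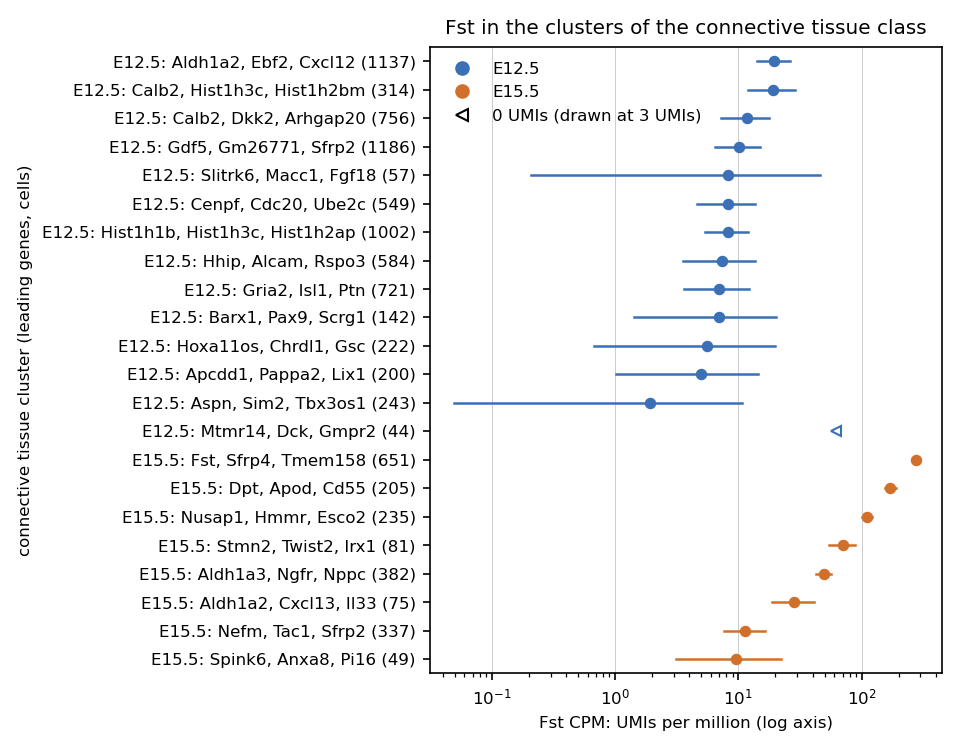
Fst in each connective tissue-like cluster, in CPM on a log axis, E12.5 clusters above and E15.5 clusters below, each ordered by level, with 95% counting intervals and the number of cells in brackets. The E12.5 clusters lie at or below 19.4 and the E15.5 clusters reach from 9.58 to 277.

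Fst was also seen outside muscle and connective tissue at E15.5. Schwann-like cells, the glia of peripheral nerve, had 112 CPM (65 UMIs in 25 of 49 cells, 86.5 to 143), which overlapped connective tissue. Melanocyte-like cells had 67.0 CPM (45.8 to 94.6), epithelial-like cells 49.0 CPM (30.3 to 74.9) and mural-like cells, which wrap small vessels, 21.5 CPM (13.7 to 32.3). Their Fst UMIs came from 7 of 44, 7 of 25 and 10 of 71 cells in turn. As thinned shares, Schwann-like cells (26.5%, 14.9 to 41.1) and connective tissue (17.7%) stood in the opposite order, so none is read between them. At E12.5 the 21 Schwann-like cells had 0 Fst UMIs, which allows up to 40.1 CPM, below the interval of the later age. Fst was also set beside Fstl1, the most abundant member in connective tissue. There were 16.5 Fst UMIs per 100 Fstl1 UMIs in connective tissue at E15.5, 85.5 in Schwann-like cells, 69.6 in melanocyte-like cells, 60 in epithelial-like cells and 4.96 in mural-like cells. Whether RNA from connective tissue gave part of the Fst UMIs of these classes was not tested. Muscle had 50.1 Fst UMIs per 100 Fstl1 UMIs at the earlier age and 2.62 at the later.

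Fstl1 encodes a secreted glycoprotein related in sequence to follistatin. It was the most abundant member at both ages, led by tenocyte-like cells (616 CPM, 571 to 665) and connective tissue (582 CPM, 571 to 593) at E12.5, whose intervals overlap, and by connective tissue (807 CPM, 795 to 819) at E15.5. Muscle was lower, at 135 CPM (121 to 150) and 62.6 CPM (56.4 to 69.2), a log2 ratio of -1.11 (-1.32 to -0.89). In connective tissue the ratio was 0.47 (0.44 to 0.51). In the cells chosen by 3 muscle marker UMIs the muscle ratio was 0.30, in the other direction. Fstl3, a follistatin-like antagonist that lacks the heparin-binding sequence of follistatin, was sparse: 2.41 CPM (6 UMIs) and 1.47 CPM (9 UMIs) in muscle, and 5.52 and 2.76 CPM in connective tissue, a log2 ratio of -1.001 (-1.50 to -0.52) that was -0.36 with doublets kept. Its highest level was in Schwann-like cells at E15.5, at 44.8 CPM (26 UMIs in 11 of 49 cells, 29.3 to 65.7). The next class, the epithelial-like cells, stood at 14.0 CPM (6 UMIs, 5.14 to 30.5), and the 2 intervals overlap.

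Mstn, which encodes myostatin, and Gdf11, which encodes its closest relative, show the contrast between a muscle gene and a widely transcribed one. The 250 bases before each gene's start are printed for that contrast, from the RefSeq promoter table on GRCm38.p6, 5′ to 3′ on the gene's strand. Capitals mark every match to CANNTG, the E-box that basic helix-loop-helix factors such as Myod1 and Myog can bind, and since CANNTG reads the same on both strands each match is counted once. Mstn is at chr1:53061390-53061639, plus strand, and Gdf11 at chr10:128891719-128891968, minus strand.
Mstn: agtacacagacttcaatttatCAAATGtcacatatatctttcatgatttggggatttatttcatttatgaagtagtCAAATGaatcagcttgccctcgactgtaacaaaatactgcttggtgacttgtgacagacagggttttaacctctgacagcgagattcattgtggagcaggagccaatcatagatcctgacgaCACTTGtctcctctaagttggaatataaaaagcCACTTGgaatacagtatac
Gdf11: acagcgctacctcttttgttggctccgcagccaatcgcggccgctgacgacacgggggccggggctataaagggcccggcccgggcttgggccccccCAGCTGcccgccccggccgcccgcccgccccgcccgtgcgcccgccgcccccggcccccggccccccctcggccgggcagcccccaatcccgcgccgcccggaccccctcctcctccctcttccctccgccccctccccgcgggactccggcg
The Mstn window holds 4 matches to CANNTG, which start 229, 174, 52 and 19 bases before the gene's start, and 3 CpG dinucleotides, at 38.4% G and C. The Gdf11 window holds 1 match, which starts 153 bases before and has the letters CAGCTG, and 33 CpG dinucleotides, at 81.2% G and C. Each window holds TATAAA once, counted on either strand. Of 32851 windows of this length in the table, 66.2% hold CANNTG at least once, 3.84% hold it 4 or more times, 13.0% hold CAGCTG and 12.4% hold TATAAA, and the median number of CpG is 6. The matches are descriptions of the sequence and were not tested as binding sites. Of the 9 members, 8 have a window in the table, and Fst is not among them.

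Mstn RNA was nearly confined to muscle among the classes measured. Muscle held 88.6% and then 95.4% of its UMIs, at 74.8 CPM (186 UMIs, 64.4 to 86.4) and 126 CPM (769 UMIs, 117 to 135). Connective tissue had 0.958 CPM and 0.951 CPM. The only other class whose interval reached the muscle level was the 21 Schwann-like cells of E12.5, with 2 UMIs. The log2 ratio in muscle was 0.75 (0.52 to 0.99) towards E15.5, a 1.68-fold difference. In cells with at least 3 muscle marker UMIs it was 0.20 (-0.04 to 0.44), and counting only male cells it was 1.203 (0.74 to 1.69). Female cells gave 0.55 (0.22 to 0.90). Thinned muscle cells carried a Mstn UMI in 9.98% (7.61 to 12.8) of cases at the earlier age and 16.2% (12.7 to 20.2) at the later, and unthinned ones in 14.1% and 44.3%. Among thinned connective tissue cells it was 0.157% and 0.199%, at median depths of 2294 and 9552 UMIs.

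The cells that carried Mstn differed between the ages more than the class level did. At E12.5 Mstn followed differentiation as Fst did, at 13.5 CPM (8.33 to 20.6) in the cluster led by Msc and Pax7, 104 CPM (80.0 to 132) in the Myog-led cluster and 335 CPM (272 to 407) in the Myh3-led cluster. At E15.5 the cluster led by Msc and Pax7 had 116 CPM (102 to 132), that led by Pax7 and Msc with cell cycle genes 117 CPM (104 to 130), and that led by Mylpf 161 CPM (140 to 184). The first of these was near the E12.5 cluster led by Msc and Pax7 in Pax7 (150 against 182 CPM) and Myog (69.7 against 49.99 CPM). Of 7 progenitor markers, 3 (Pax7, Myf5 and Msc) were at least 2-fold above the other muscle clusters in that E12.5 cluster. In the E15.5 cluster it was 1 (Msc). The 2 clusters may therefore not be made of like cells. With cells thinned, Mstn was found in 7 of 356 cells of the E12.5 Msc and Pax7 cluster, or 1.97% (0.794 to 4.01), and in 22 of 157 at E15.5, or 14.0% (8.99 to 20.4). Split by marker UMIs, Mstn in cells with a Pax7 UMI and no Myog UMI was at 11.1 CPM (8 UMIs) and 95.8 CPM (287 UMIs), an 8.61-fold difference (4.31 to 20.1). Thinned before the split, the same comparison rested on 6 and 5 UMIs and gave 1.44-fold (0.349 to 5.68), so at equal depth that split could not show a difference. In cells with a Myog UMI and no Pax7 UMI, Mstn was level, at 163 and 157 CPM, a log2 ratio of -0.06 (-0.34 to 0.23).

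Some muscle cells at E12.5 held UMIs of both Fst and Mstn. Of 551 thinned cells, 52 had a Fst UMI, 55 a Mstn UMI and 13 both, so that 25% of the cells with Fst also had Mstn and 23.6% of those with Mstn also had Fst. At E15.5 the numbers were 2, 63 and 0 of 389. In connective tissue at E15.5, 357 of 2014 thinned cells had a Fst UMI and 4 a Mstn UMI. The class with the highest level of the ligand was also that of its antagonist at E12.5, and at E15.5 it was not.

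Gdf11 was spread over many classes at a low level, the mesenchymal and muscle classes among them. At E12.5 it stood at 39.4 CPM (28.5 to 53.1) in tenocyte-like cells, 32.5 (29.9 to 35.2) in connective tissue, 28.0 (23.4 to 33.2) in chondrocyte-like cells and 27.8 (21.6 to 35.1) in muscle, and each of these overlapped its neighbour. At E15.5 the same 4 classes lay between 8.84 and 13.7 CPM. Schwann-like (13.8, 5.95 to 27.2), mural-like (13.1, 7.17 to 22.0) and mast-like cells (8.98, 4.78 to 15.4) had similar levels. Endothelial-like (4.84, 2.32 to 8.90) and immune-like cells (1 UMI, 1.19, 0.0302 to 6.65) had lower values. Both intervals overlapped those of muscle (6.64 to 11.5) and mast-like cells. Melanocyte-like cells had 2 UMIs and epithelial-like cells 0. The log2 ratio was -1.65 (-2.19 to -1.12) in muscle and -1.24 (-1.45 to -1.03) in connective tissue. The muscle ratio was -2.46 after thinning and -0.68 (-1.83 to 0.49) in male cells. Its highest cluster was the 222 connective tissue cells led by Hoxa11os, Chrdl1 and Gsc at E12.5, with 80.2 CPM (53.7 to 115).

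Inhba encodes the beta A chain of activin A. Muscle had almost none, 5 UMIs (2.01 CPM) and then 4 (0.655 CPM), too few for the 10-UMI minimum. Tenocyte-like cells had the most at both ages, 128 CPM (108 to 152) and 138 CPM (120 to 158). At E12.5 these were the single cluster led by Dcn, Grem1 and Kera, and at E15.5 the clusters led by Tnmd and Scx, so the class is not made of like cells at the 2 ages. Connective tissue had 46.2 CPM (43.0 to 49.4) and 34.1 CPM (31.7 to 36.7). Chondrocyte-like cells had 8.77 CPM (6.29 to 11.9) and 45.0 CPM (38.9 to 51.7), and 158 of the 196 UMIs at E15.5 came from the cluster led by Mia, Mecom and Dkk3, at 62.0 CPM (52.7 to 72.4). The clusters with the cartilage gene Matn1 among their first 3 leading genes overlapped between the ages. The pair in the earlier library stood at 7.06 CPM (16 UMIs, 4.04 to 11.5) and 4.18 CPM (3 UMIs, 0.862 to 12.2), the one in the later library at 12.51 CPM (9 UMIs, 5.72 to 23.7). Mural-like cells at E15.5 had 45.9 CPM (33.9 to 60.7).

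**Figure D4:**
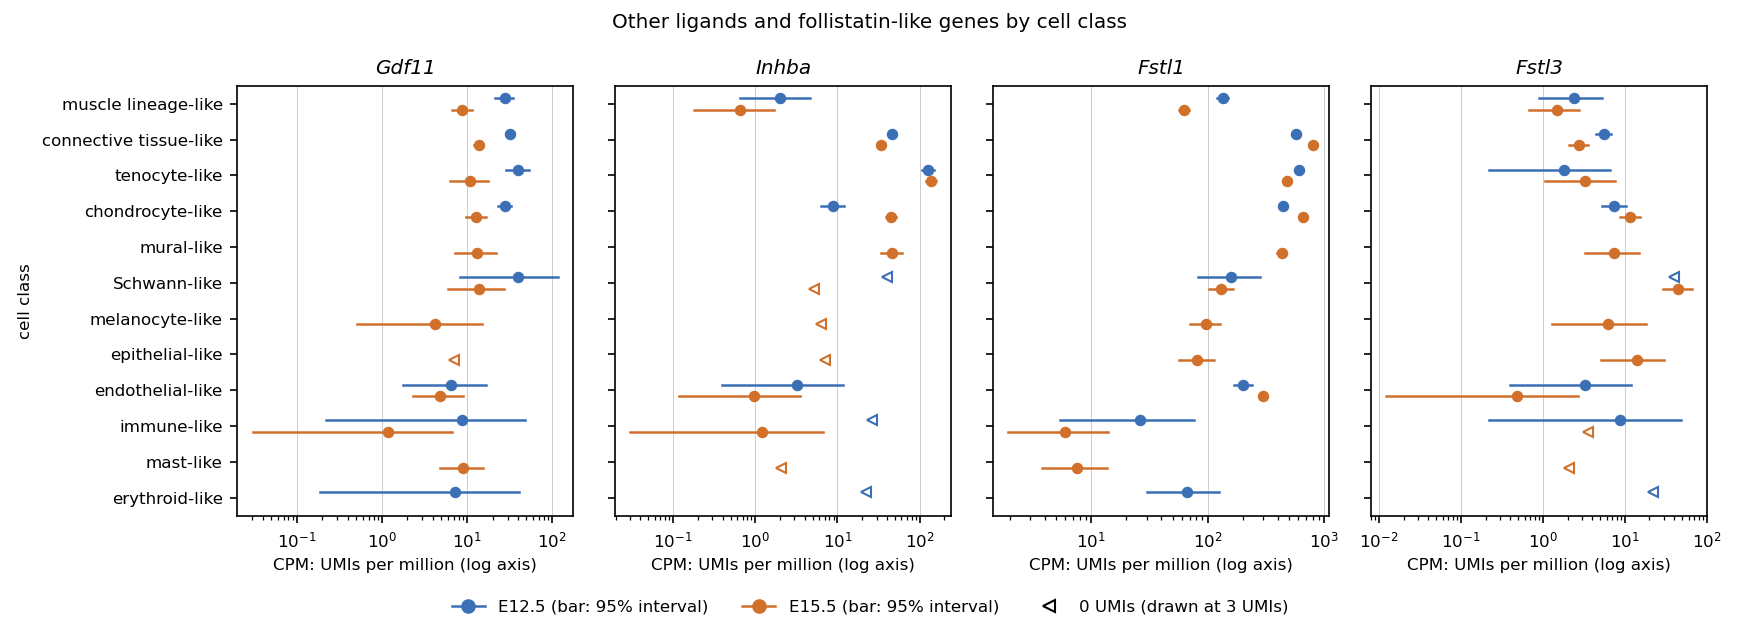
Gdf11, Inhba, Fstl1 and Fstl3 in each cell class at E12.5 (blue) and E15.5 (orange), in CPM on log axes, with 95% counting intervals. Triangles mark 0 UMIs, drawn at the level of 3 UMIs. Inhba is highest in tenocyte-like cells at both ages (128 and 138) and near the counting limit in muscle.

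The type II receptors had UMIs in every well-filled class, and muscle was among the highest. Immune-like and mast-like cells at E15.5 were at or below the limit of 3 UMIs, each with 3 Acvr2a and 2 Acvr2b UMIs. Acvr2a stood at 98.9 CPM (87.0 to 112) in muscle at E12.5, above connective tissue at 37.8 (35.0 to 40.8), chondrocyte-like cells at 35.7 and tenocyte-like cells at 27.5. At E15.5 muscle had 30.1 CPM (25.9 to 34.8) and connective tissue 26.6 (24.5 to 28.9), which overlap, and the highest value was that of melanocyte-like cells, 46.1 (28.9 to 69.7). The muscle log2 ratio was -1.72 (-1.999 to -1.43), and the connective tissue ratio -0.51 (-0.67 to -0.34). By muscle cluster Acvr2a was 115, 62.2 and 90.4 CPM at E12.5, in the order from the Pax7-led to the Myh3-led cluster, and 39.6, 28.6 and 17.8 CPM at E15.5, so that every E15.5 cluster was below every E12.5 one, although the highest of the later clusters (31.6 to 49.0) and the lowest of the earlier ones (44.2 to 85.0) overlap. Thinned, an Acvr2a UMI was carried by 97 of 551 muscle cells (17.6%) and then by 24 of 389 (6.17%).

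Acvr2b stood at 42.6 CPM (34.9 to 51.6) in muscle and 26.9 (24.6 to 29.5) in connective tissue at E12.5. At E15.5 these were 23.6 (19.9 to 27.8) and 6.47 (5.43 to 7.65), and melanocyte-like cells, at 35.6 (20.7 to 57.0), overlapped muscle. The muscle log2 ratio was -0.85 (-1.23 to -0.48), and the connective tissue ratio, the largest of any member there towards E12.5, was -2.06 (-2.34 to -1.78). Muscle thus held 13.4% and later 35.3% of the Acvr2b UMIs, beside 8.81% and 14.97% of all UMIs. Acvr1b, a type I receptor shared by activins and myostatin, was sparse in muscle, at 2.82 CPM (7 UMIs) and 3.60 CPM (22 UMIs), with a log2 ratio of 0.36 (-0.92 to 1.83) that turned to -1.08 (-4.42 to 1.40) after thinning, from 6 and 2 UMIs. Connective tissue had 8.40 CPM (7.10 to 9.86) and 4.85 CPM (3.96 to 5.89). The highest Acvr1b levels at E15.5 were in epithelial-like (23.3 CPM, 11.2 to 42.9) and mast-like cells (15.9 CPM, 10.1 to 23.8), which overlap.

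**Figure D5:**
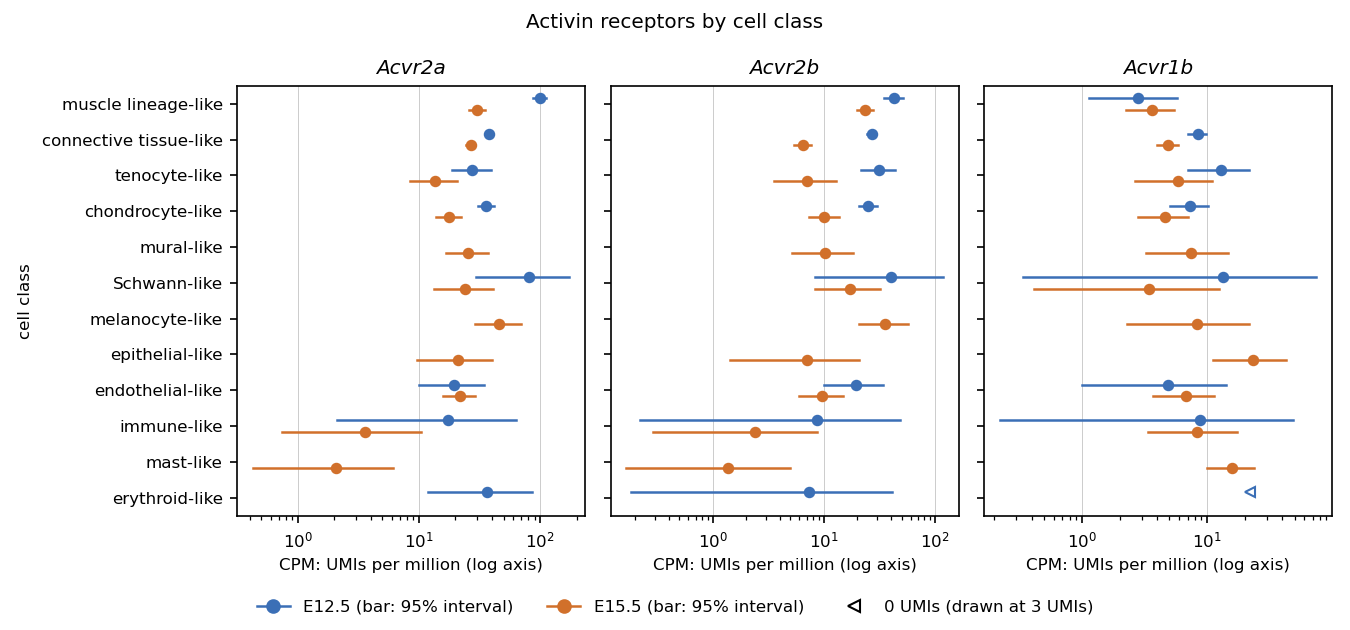
The receptors Acvr2a, Acvr2b and Acvr1b in each cell class at E12.5 (blue) and E15.5 (orange), in CPM on log axes, with 95% counting intervals. Acvr2a in muscle moves from 98.9 to 30.1 and Acvr2b in connective tissue from 26.9 to 6.47, while Acvr1b is below 10 in muscle and connective tissue at both ages.

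Counted together, 8 of the 9 members had at least 10 UMIs over the muscle classes of both libraries, and Inhba did not. Of these 8, 4 were at least 2-fold lower at E15.5 (Fst, Fstl1, Gdf11 and Acvr2a) and 0 at least 2-fold higher. Over the 12575 genes measured in muscle the same rule took 21.7% as lower and 5.41% as higher. In connective tissue 3 of 9 were lower (Fstl3, Gdf11 and Acvr2b) and 1 higher (Fst), beside 26.1% and 11.2% of 16735 genes. The median gene itself was lower at E15.5 by a log2 ratio of -0.39 in muscle and -0.39 in connective tissue. Relative to it, 3 members were lower in muscle (Fst, Gdf11 and Acvr2a) and 1 higher (Mstn, 1.14), beside 12.1% and 11.3% of genes, and Fstl1 was at -0.72. In connective tissue 1 was lower (Acvr2b) and 1 higher (Fst), beside 16.9% and 17.4%. Since the members were chosen with their levels known, these counts say nothing about the set.

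The rest of the pathway was read through a list of 44 ligands, binding proteins, receptors, signal carriers and targets. In muscle 34 had enough UMIs, of which 15 were at least 2-fold lower at E15.5 and 1 higher, beside 21.7% and 5.41% of all genes measured, with a median log2 ratio of -0.94 beside -0.38 for all genes measured. By role, 2 of 3 ligands, 3 of 11 binding and processing proteins, 2 of 5 receptors, 5 of 9 signal carriers and inhibitors and 3 of 6 targets were lower. Ccn2, a secreted matrix protein and a common target of TGF-beta signalling, had the largest ratio, -3.65 (-4.87 to -2.60, 18.5 to 1.47 CPM). It was followed by Inha, the inhibin alpha chain, at -2.53 (-3.55 to -1.59). Skil and Smad7, inhibitors that the pathway itself induces, were at -2.30 (-2.57 to -2.02) and -2.12 (-2.53 to -1.71). Pcsk6, a protease that cleaves ligand precursors, and Bmpr2, a type II receptor for bone morphogenetic proteins, were at -1.92 (-3.16 to -0.75) and -1.87 (-2.08 to -1.66). Relative to the median gene 11 were lower and 2 higher, beside 12.1% and 11.3% of all genes. By role the lower ones were then 2 ligands, 3 binding and processing proteins, 1 receptor (Bmpr2), 4 signal carriers and inhibitors and 1 target (Ccn2). The list was chosen with earlier results of these data known, so its counts in either class say nothing about the pathway as a whole. The 1 gene 2-fold higher was Dcn, which encodes the matrix proteoglycan decorin, at 5.63 and 26.7 CPM in muscle. Dcn is also a connective tissue marker, and it stood at 44.0 and 1563 CPM in connective tissue at the 2 ages. Its part from connective tissue RNA was not tested.

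In connective tissue 38 of the 44 genes had enough UMIs, of which 9 were lower and 6 higher, beside 26.1% and 11.2% of all genes measured, with a median of -0.08 beside -0.40 for all genes measured. Relative to the median gene 4 were lower and 12 higher, beside 16.9% and 17.4%. Besides Dcn, the higher genes were Inhbb, Tll2, Bambi, Tgfbr2 and Cdkn1a. Inhbb, the beta B chain of activin B, was at 0.676 and 5.71 CPM, a log2 ratio of 3.08 (2.22 to 4.07). Skil and Ccn2 were lower there too, at -1.81 (-1.93 to -1.69) and -1.61 (-1.87 to -1.35), whereas Smad7 was at -0.88 (-1.01 to -0.77).

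Profiles over the 13 combinations of class and library with at least 50 cells were compared by Pearson's r of log2(CPM + 10) for 14889 genes, with no test, since profiles of 1 library share depth and free RNA. The 5 genes most like Fst were Dpep1 (r = 0.889), Gm28722 (0.879), Aknad1 (0.873), Dmrt2 (0.867) and Trhde (0.860). Of these Dmrt2 was the most abundant, at 29.4 and 9.83 CPM in muscle and 13.9 and 47.4 CPM in connective tissue. It moved in the direction of Fst in both classes and by less, a match that its choice by correlation favours. Dpep1, Gm28722, Aknad1 and Trhde were below the added 10 CPM in both classes at both ages, so their profiles rest on few UMIs. The 5 most like Mstn were Hspb3 (0.996), Mymx (0.996), Tnnt2 (0.995), Tnnc2 (0.995) and Tnnt3 (0.995), a small heat shock protein of muscle, the fusion protein myomixer and 3 troponins of the contractile apparatus.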

How the data were processed

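Deposited raw UMI counts per gene and barcode, already limited to cell barcodes by the authors, were made with Cell Ranger 4.0.0 per the file headers. The submitters' processing notes also name mm10 and Seurat 4.3.0. Gene positions are from GENCODE M21. The members and lists were chosen with earlier results of these data known.

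Barcodes with under 500 genes (604 at E12.5, 1376 at E15.5) or 10% or more mitochondrial UMIs (166 and 644) were removed, and then those with the highest simulated doublet scores, 1270 (10.3%) and 190 (4.63%). Each library was clustered alone with Python 3.11.15, scikit-learn 1.9.0 and leidenalg 0.10.2 (2000 variable genes without members and pathway genes, 30 components, 15 neighbours, resolution 1), giving 28 clusters each. Other muscle genes stayed among the variable genes. A cluster took a class name with at least 3 markers 2-fold above the other cells and in 10% of its cells. A marker of that class also had to be among its 10 leading genes. Of clusters left over, those not shallow and with no other class ahead among leading genes could be named connective tissue. That took 3 of its markers 2-fold above the pooled muscle, endothelial, immune, mast, erythroid, Schwann, epithelial, mural and melanocyte cells. Most connective tissue clusters were named by this second rule. Names made again from deposited counts may differ from the authors'. Classes under 20 cells are not given. The subtype markers named no E15.5 progenitor cluster, so muscle clusters go by leading genes.

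UMIs were summed per class and library and given as CPM. Poisson, Clopper-Pearson and conditional binomial intervals are exact, from scipy 1.17.1, and a count of 0 allows up to 3 UMIs. Ratios across genes needed 10 UMIs over both libraries. The ratio script was tested on simulated data with known changes. All members are named. Pathway genes are named up to 6 a direction by size of ratio in muscle, and the 5 genes most like Fst and Mstn by correlation. Other genes named lead clusters, mark cell types or were chosen after their values were seen (Inhbb and the other genes higher in connective tissue). Alternatives covered resolution, variable genes, joint clustering, doublets, filters, thinning, scaling, cells with only Y-linked or only Xist UMIs (male, female), and muscle chosen by marker UMIs. The split by Pax7 and Myog, with and without thinning, and leaving out the cluster led by Fst, were added after seeing the data.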

Additional observations from a re-analysis of the deposited data

Results flagged for a closer look

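For Fst and Fstl1 the ratio between the ages ran in opposite directions in the muscle and connective tissue classes. The Fst log2 ratio in connective tissue exceeded that in muscle by 9.05, with 3.68 in connective tissue and -5.37 in muscle. The Fstl1 log2 ratio in connective tissue exceeded that in muscle by 1.58, with 0.47 and -1.11. With 1 library per age neither difference was tested. The Fst ratio in muscle was among the values that chose the genes. In cells chosen by muscle marker UMIs the Fstl1 ratio was 0.30, towards E15.5 as in connective tissue.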

How the results depend on the processing

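The Fst log2 ratio in muscle kept its direction under all 14 alternatives, from -5.40 to -0.87, and lay outside its counting interval with doublets kept (-2.99), with all deposited barcodes (-2.91) and in cells chosen by muscle marker UMIs (-0.87). The Mstn ratio in muscle was between 0.20 and 1.203. It was 1.203 in male cells, 1.14 relative to the median gene and 0.20 in cells chosen by marker UMIs. The Fst ratio in connective tissue was between 2.85 and 4.07. It was 3.38 with both libraries clustered together, 3.19 in male cells, 4.07 relative to the median gene and 2.85 without the cluster led by Fst. After thinning, Mstn in cells with Pax7 and no Myog UMI was at 0.53 instead of 3.11, and Fst in cells with Myog and no Pax7 UMI at -3.67 instead of -4.90. Without thinning, the share of muscle cells with a UMI differed by -13.5 instead of -8.92 percentage points for Fst and by 30.2 instead of 6.21 for Mstn. The number of members past a 2-fold ratio in muscle was 4 with a minimum of 10 or 20 UMIs and 5 with none. For the other member ratios, 181 of 196 alternatives over 15 results kept the direction. Fstl1 in muscle was turned round, at 0.30, in cells chosen by marker UMIs, and Acvr1b in muscle, at -1.08, after thinning. Inhba in muscle changed sign once (0.08) and Mstn in connective tissue, at -0.01, under all 12. The cause of these moves was not tested. No paired analysis was possible because each age has 1 library. Members with under 10 UMIs in a class and classes under 50 cells are limited by depth.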
